A study of Mus musculus with 15 samples.

Results

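The proteins of the small (40S) subunit of the cytoplasmic ribosome are described here at the level of their transcripts. The genes were taken from the deposited table by symbol: Rps followed by a digit, together with Rpsa and Fau, without the S6 kinase genes (Rps6k), pseudogene rows with -ps in the name, and Rps19bp1. This gave 35 of 17594 genes. All 35 passed the filter on low values (a normalized read count of at least 10 in at least 3 libraries), as did 11314 genes in all.

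The small subunit binds the mRNA and reads the codons, and the large subunit joins amino acids. Its proteins fold with the 18S ribosomal RNA into a head and a body, with the mRNA passing through the cleft between them. Each protein is normally needed in the same number of copies, and the mRNAs of many ribosomal proteins begin with a pyrimidine run, the 5′ terminal oligopyrimidine (TOP) tract, through which mTORC1 and LARP1 regulate their translation. T cells raise ribosome production when they are activated and divide.

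The samples were CD4+ T cells sorted from spleens of C57BL/6 mice, either regulatory (Treg) or conventional (Tconv). Knockout (KO) animals carried a conditional HPGD knockout and FOXP3-Cre-YFP, a driver active in cells that express Foxp3, so that in these animals the deletion is directed to Treg and not to Tconv. HPGD is hydroxyprostaglandin dehydrogenase, which inactivates prostaglandin E2. Controls are labelled wild-type (WT), and the labels do not say whether they carry the driver. Libraries of total RNA numbered 4 from WT Treg, 4 from KO Treg, 3 from WT Tconv and 4 from KO Tconv. The labels do not say whether a library holds cells of 1 animal or which Treg and Tconv libraries come from the same animal, so p-values measure the spread between libraries, which may in part be technical.

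Hpgd had 1 read in Treg WT replicate 1 and 0 reads in the other 14 libraries, where a count of 0 allows up to 3 reads, so the deletion was not detectable at this depth. Depth in mega-reads (M reads) was 6.60 to 11.1 for Tconv WT, 2.95 to 10.3 for Tconv KO, 6.43 to 10.0 for Treg WT and 2.64 to 4.71 for Treg KO, so every Treg KO library was shallower than every Treg WT library. Reads of the Y-linked gene Ddx3y were present in 7 of 7 WT and in 0 of 8 KO libraries, and Xist averaged 15567 in Treg KO against 1.84 in Treg WT. Sex and genotype therefore cannot be told apart, and neither can genotype and the series of label numbers (483 to 490 in WT, 574 to 581 in KO). The 5 Treg markers summed to 17790 to 19601 in Treg WT and 19911 to 24758 in Treg KO, while Tconv WT had 1359 to 1579 and Tconv KO 945 to 4534. The sum of 8 B cell markers ran from 523 to 769 in Treg WT and from 841 to 1876 in Treg KO, where Pax5 was at 0; it was 46.1 to 51.5 in Tconv WT and 65.6 to 168 in Tconv KO. The part of depth, sex, label series and B cell RNA in the differences below was not tested, beyond the thinned reads given with the Treg result.

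Start regions were at hand for 26 of the 35 genes (RefSeq promoters, GRCm38.p6). They were searched for a TOP start, defined as a C within 5 bases of the annotated start followed by at least 4 bases that are each C or T on the sense strand. It was found in 14 of the 26 (53.8%), against 21.2% of 27025 genes. The 8 regions below hold 20 bases before and 10 bases from the annotated start of genes that the results turn on, and capitals mark the pyrimidine run as far as it lies within the bases shown. Rps27rt, Rps28 and Rps19 had the largest falls in Treg KO, Fau and Rps6 also fell, Rps10 and Rps3 did not pass there, and Rps15a rose. The coding sequence of Rps27rt is shared with Rps27, so the fall of Rps27rt cannot be assigned to that gene with confidence.
Rps27rt (chr9:114982730-114982759, minus strand): ggttaagaacttatcccttgCTTTCCggcg
Rps28 (chr17:33824553-33824582, minus strand): tcctgggtaccgcgtgcggtctcgcgagag
Rps19 (chr7:24884572-24884601, plus strand): agcactccgaaatctcgcgagactcgacgc
Fau (chr19:6057927-6057956, plus strand): ggacgtgcgcgcccccacttCTTCCTCTTT
Rps6 (chr4:86857358-86857387, minus strand): gggttaagcggaagtcgggcCTCTTTTTCg
Rps10 (chr17:27635235-27635264, minus strand): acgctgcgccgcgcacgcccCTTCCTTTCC
Rps3 (chr7:99483700-99483729, minus strand): gaacacttgcaagggtcgccgcgctgcgcg
Rps15a (chr7:118116138-118116167, minus strand): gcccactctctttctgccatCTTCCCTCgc

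The start of Rps19 shown is 1 of 3 annotated starts with a sequence at hand, and 0 of the 3 has a TOP start in this window. Among genes with a TOP start at position 1, Rps27rt and Rps15a lie at opposite ends of the Treg differences given next. Over the 300 bases around the start (250 before, 50 after), the ETS motif CCGGAAG was found on either strand in 11 of the 26 genes (42.3%, against 9.93% of all genes). The YY1 motif AAGATGGC, searched on both strands, was found in 3 (11.5% against 3.19%: Fau, Rps15a and Rps27), and the TATA box TATAAA on the sense strand in 2 (7.69% against 9.77%: Rps2 and Rps28). The ETS motif ends in the letters that open the YY1 motif, so that their matches can overlap, which they did in 0 of the 26 genes. A match describes the sequence only. A gene without a TOP start in this search may still have a TOP tract at another start or outside the bases searched.

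The first comparison asks how Treg of the knockout animals differ from Treg of the controls. Of the 35 small subunit genes, 27 fell in Treg KO, 1 rose (Rps15a) and 7 did not pass, among them Rps3, Rps3a1 and Rps10. A gene passed when the Benjamini-Hochberg adjusted p of limma over the 11314 genes was under 0.05. Over all genes tested 11.1% fell and 10.4% rose. The median difference of the members was -0.86 (log2, KO minus WT) against -0.00031 over all genes. Of the members that fell, 15 did so by more than 2-fold, as did 170 of all genes. The 4 Treg KO libraries all lay below the 4 Treg WT libraries for 26 members (over all genes tested, 13%). In bulk RNA, fewer transcripts per cell and fewer cells that carry them cannot be told apart, and the values are relative to all other transcripts of a library.

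**Figure D1:**
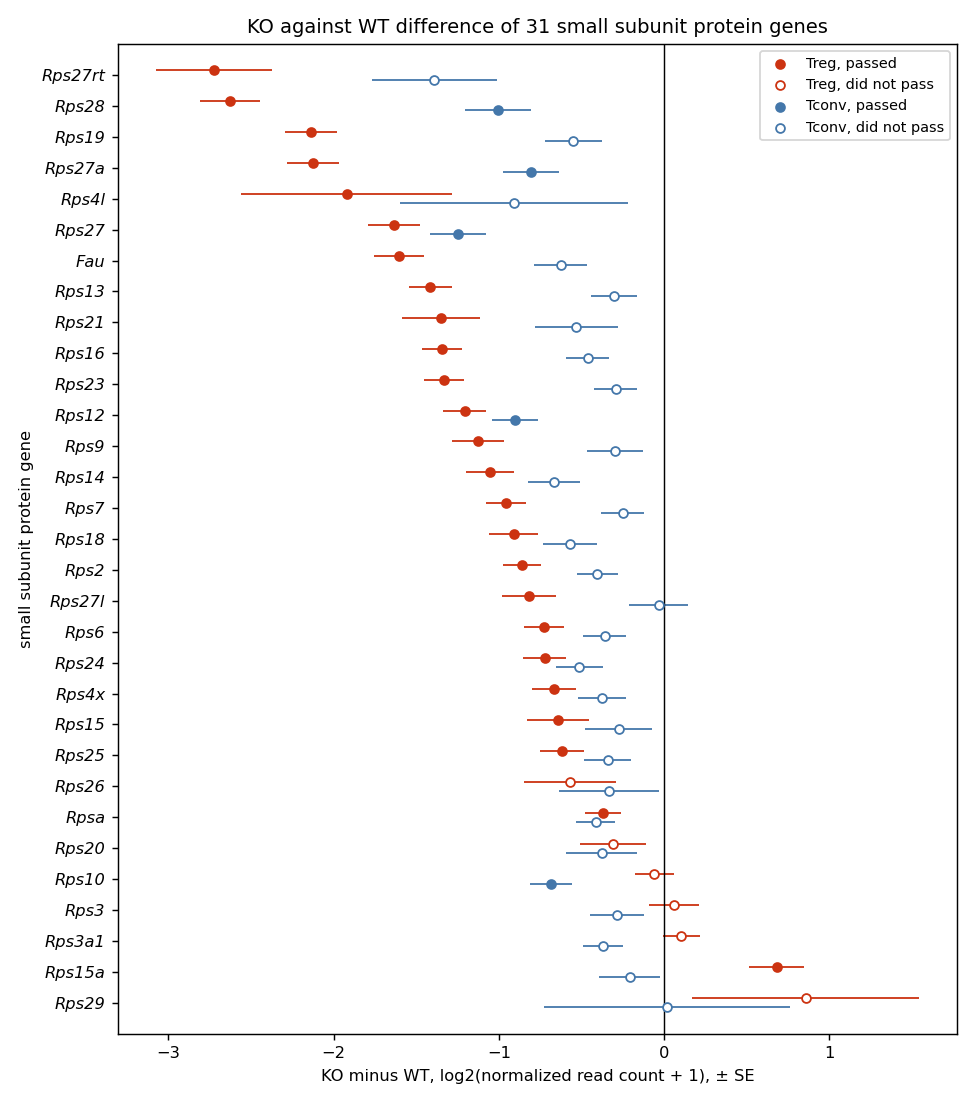
Difference between KO and WT for 31 of the 35 small subunit genes, in Treg (red) and Tconv (blue); the x axis is KO minus WT of log2(normalized read count + 1), points are limma estimates, bars are 1 SE, and filled points passed. In Treg 24 filled points lie left of 0 and 1 lies right of it (Rps15a), and in Tconv 5 filled points lie left of 0.

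The head of the subunit holds contacts with tRNA and mRNA, and 9 of the 14 head genes fell in Treg KO (median -0.64). Rps28, whose protein lies near the exit of the mRNA channel, read 1078, 895, 1027 and 984 normalized counts in Treg WT and 151, 158, 118 and 233 in Treg KO. All 4 KO libraries lay far below all WT libraries, and replicate 4 was the highest of the KO group. Rps28 fell by 2.63 on the log2 scale (SE 0.18, n = 4 in each group, limma adjusted p = 3.93e-07). Rps19, a protein needed to process the 18S rRNA precursor and often mutated in Diamond-Blackfan anaemia, read 3069, 2704, 2602 and 3298 in Treg WT and 627, 586, 592 and 868 in Treg KO. The groups did not overlap, and KO replicate 4 again stood highest. Rps19 fell by 2.14 (SE 0.16, limma adjusted p = 6.77e-07).

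Rps27a, which is made as a fusion of ubiquitin and a ribosomal protein, read 1545, 1475, 1108 and 1483 in Treg WT and 289, 311, 343 and 336 in Treg KO. The KO libraries lay close together and below every WT library, with a log2 difference of -2.12 (SE 0.16, limma adjusted p = 6.77e-07). Rps16, whose tail reaches the tRNA in the P site, fell from 2289 ± 240 to 900.1 ± 89.4 (SD, n = 4), by 1.35 on the log2 scale, without overlap. Rps12, of the beak of the head, fell by 1.21 from 448 ± 53.3 to 195 ± 37.1. Smaller falls were seen for Rps18, which bridges to the large subunit (-0.91, SE 0.15), Rps15 (-0.64, SE 0.19) and Rps25 (-0.62, SE 0.13).

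The 5 head genes that did not pass include 3 with contacts at the mRNA entry, Rps3, Rps10 and Rps20. The mRNA entry was not spared as a whole, since the body gene Rps2, also of the mRNA entry, fell (-0.86). Rps3 read 10151, 8935, 8666 and 10124 in Treg WT and 7796, 9578, 11003 and 11410 in Treg KO, so that the groups overlapped and the KO libraries spread to both sides. Its difference was 0.06 (SE 0.15, 95% interval -0.27 to 0.38), and without Treg KO replicate 4 it was -0.01. Rps10 differed by -0.06 (SE 0.12, 95% interval -0.31 to 0.19), a sign that 3 other ways of processing turned (0.04 to 0.32). Rps20 differed by -0.31 (SE 0.20), with Treg KO replicate 3 at 1801 and the other 3 KO libraries at 3225 to 4174. Rps29, which carries a zinc-binding motif, had at most 70 reads in any library. Its difference was 0.86 with an SE of 0.69, so that its change was not measurable from these counts. Every window of the Rps29 coding sequence that was searched also occurs in another gene (119 of 119). The part of read assignment in its low counts was not tested.

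The body of the subunit holds the decoding centre, the platform and the foot, and 15 of its 18 genes fell in Treg KO while 1 rose (median -0.91). Fau encodes a ubiquitin-like protein fused to a ribosomal protein. It read 2691, 2185, 2274 and 2770 in Treg WT and 830, 1031, 571 and 884 in Treg KO, without overlap, and fell by 1.60 (SE 0.15, limma adjusted p = 7.19e-06). Rps13, a bridge to the large subunit, read 1456, 1393, 1178 and 1603 in Treg WT and 570, 577, 396 and 576 in Treg KO. The KO group lay below every WT library, with replicate 3 the lowest, and the log2 difference was -1.42 (SE 0.13). Rps23, at the decoding centre, fell by 1.33 (SE 0.12) from 1950 ± 182 to 775 ± 85.3. Rps21 fell by 1.35 (SE 0.23), with KO replicate 3 at 657 and the other KO libraries at 1246 to 1767.

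Among longer body genes, Rps9 had a log2 difference of -1.13 (SE 0.16), Rps2, of the mRNA entry, one of -0.86 (SE 0.11), and Rps7 one of -0.96 (SE 0.12), and all 3 fell. Rps14, a protein of the platform whose loss marks the human 5q syndrome, fell by 1.05 (SE 0.14). Rps6, the substrate of S6 kinase, read 8652, 7869, 8034 and 7658 in Treg WT and 4233, 4722, 4904 and 5697 in Treg KO. The groups did not overlap, and the log2 difference was -0.73 (SE 0.12, limma adjusted p = 0.00122). The X-linked gene Rps4x, the 1 member on the X chromosome, fell by 0.66 (SE 0.13) from 5842 ± 402 to 3701 ± 460. Rps24 fell by 0.72 (SE 0.13). Rpsa, which is also known as the precursor of the laminin receptor, fell least, by 0.37 (SE 0.11, limma adjusted p = 0.0277), and its groups overlapped (8973 to 10678 in Treg WT, 6963 to 9024 in Treg KO).

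Rps15a was the 1 member that rose. It read 1867, 1917, 1531 and 1820 in Treg WT and 2138, 2714, 3826 and 2961 in Treg KO. All KO libraries lay above all WT libraries, replicate 3 highest, and the rise was 0.68 (SE 0.17, limma adjusted p = 0.0121). Of the body genes that did not pass, Rps3a1, of the platform, differed by 0.10 (SE 0.11, 95% interval -0.13 to 0.34). Rps26, next to the mRNA exit, differed by -0.57 with a wide error (SE 0.28, limma adjusted p = 0.152), so a fall of Rps26 was neither shown nor excluded. Its KO replicate 3 was at 517 and the other KO libraries at 1545 to 1691.

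The paralogs and retrocopies also fell. Rps27 and Rps27rt, a gene with 1 exon on chromosome 9, share all 203 of their 50-base coding windows with each other, so reads cannot be divided between them with confidence. Rps27 read 600, 575, 435 and 473 in Treg WT and 160, 153, 153 and 202 in Treg KO, and Rps27rt read 629, 615, 476 and 514 in Treg WT and 31.9, 82.5, 172 and 104 in Treg KO. Neither gene overlapped between the groups, and their log2 differences were -1.63 (SE 0.16) and -2.72 (SE 0.35). Rps27l, a paralog induced by p53, read 115 to 121 in Treg WT and 57.0 to 92.8 in Treg KO and fell by 0.82 (SE 0.16). Rps4l, annotated as a transcribed processed pseudogene, was at 6.40 to 15.96 in Treg WT and 0 to 4.85 in Treg KO, from at most 18 reads in a library (limma adjusted p = 0.0431), a call that ended in 6 other ways of processing (adjusted p 0.0526 to 0.126). It reached the filter value of 10 in 3 libraries, all of them WT, and so entered the test through the groups where it is high. Without it, 26 of 34 members fell, 14 of them by more than 2-fold. The Treg KO libraries then all lay below the Treg WT libraries for 25 members, and the median difference was -0.84.

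Reads thinned to 2.64 M reads in every library left 27 members lower and 1 higher, while 823 of the 11422 genes tested there were lower. Leaving out 1 Treg library at a time left 24 to 27 members lower. The calls that ended were those of Rps15 (with WT replicate 1, 3 or 4 left out, limma adjusted p at most 0.0673), of Rps4l (with any WT replicate, or KO replicate 3 or 4, left out, at most 0.127) and of Rpsa (with WT replicate 1 or 4, or KO replicate 1 or 3, left out, at most 0.0793).

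**Figure D2:**
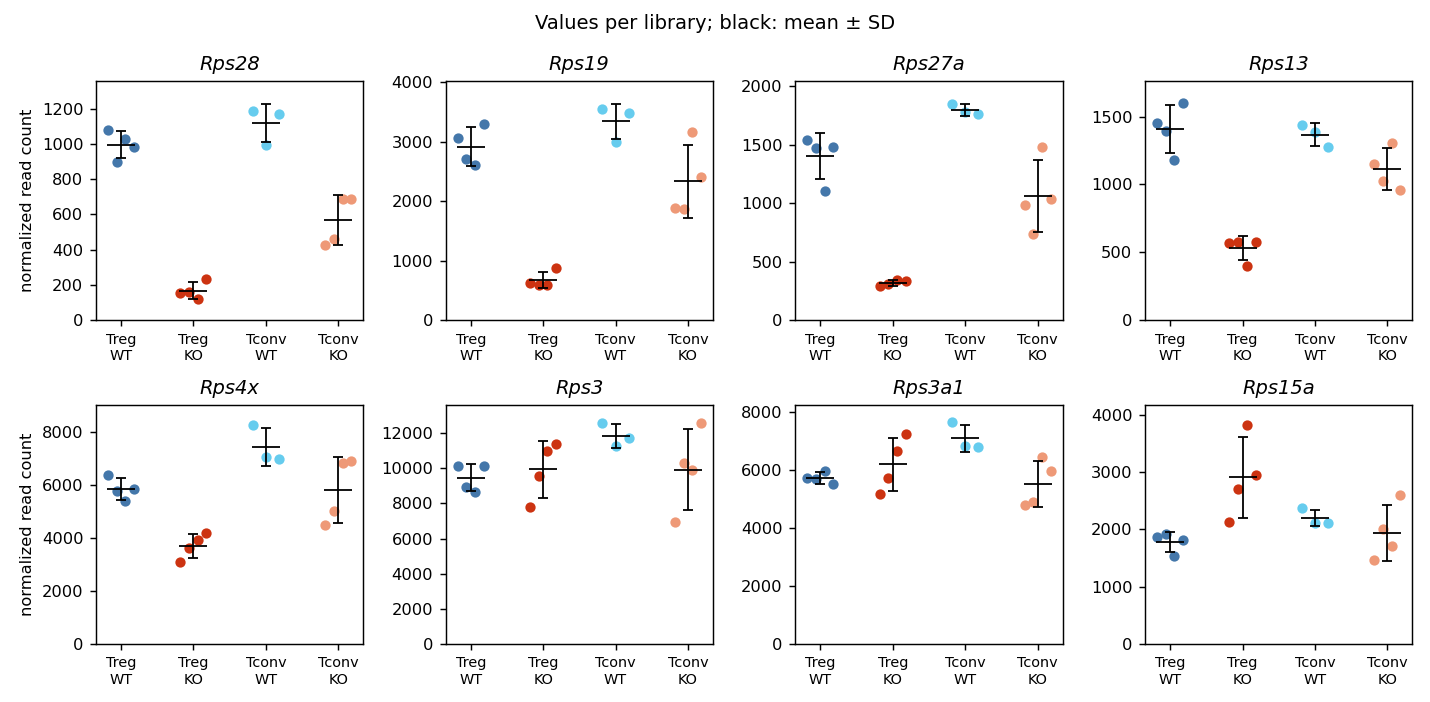
Normalized read counts of 8 small subunit genes in every library, by group; the y axis starts at 0, points are libraries, and black marks are the mean ± SD. For Rps28, Rps19, Rps27a and Rps13 the 4 Treg KO points lie below all other groups, for Rps3 and Rps3a1 the Treg groups overlap, and for Rps15a the Treg KO points lie above the Treg WT points.

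The same comparison in Tconv, sorted from the same genotypes, was smaller and mostly did not pass. Of the 35 genes, 5 fell in Tconv KO and 0 rose, against 0.389% and 0.292% of all genes tested. At an unadjusted p under 0.05, 23 members were lower and 0 higher, against 5.90% and 6.11% of all genes. On the whole reads, edgeR found 6 lower and DESeq2 12, and both found 0 higher. Over all 11314 genes, edgeR found 53 lower and DESeq2 131. The difference was below 0 for 34 of the 35 members (all but Rps29), with a median of -0.40 against 0.0028 over all genes. The 4 Tconv KO libraries all lay below the 3 Tconv WT libraries for 21 members (over all genes tested, 8.54%). Rps27 fell most among the members that passed, from 772, 690 and 674 in Tconv WT to 260, 226, 377 and 360 in Tconv KO. The groups did not overlap, and the log2 difference was -1.25 (SE 0.17, limma adjusted p = 0.00181). Its retrocopy Rps27rt differed by -1.39 (SE 0.38) and did not pass (adjusted p = 0.141).

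Rps28 read 1189, 993 and 1170 in Tconv WT and 428, 463, 690 and 687 in Tconv KO, below every WT library, and fell by 1.01 (SE 0.20, limma adjusted p = 0.0277). Rps12 fell by 0.90 (SE 0.14), and Rps27a fell by 0.81 (SE 0.17). Rps10 read 3634, 3293 and 3659 in Tconv WT and 1673, 2209, 2374 and 2614 in Tconv KO. It fell by 0.69 without overlap (SE 0.13, limma adjusted p = 0.0192), whereas in Treg its groups overlapped. The difference of both changes was 0.63 (SE 0.17) and did not pass (adjusted p = 0.256). Genes that passed in both cell types were 4: Rps12, Rps27, Rps27a and Rps28. Rps19 differed by -0.55 (SE 0.17) in Tconv and did not pass.

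Tconv KO replicate 3 lay closer to the WT libraries than the other KO libraries for many members: Rps19 read 3164 there, against 1876 to 2407 in the other 3. Without it 10 members fell. Without Tconv WT replicate 1, 2 or 3 there were 1, 2 and 2, and without Tconv KO replicate 1 or 2 there were 3 each. The calls of Rps28 and Rps27a ended without any Tconv WT replicate or without Tconv KO replicate 1 or 2, and that of Rps27a also without replicate 4, with adjusted p up to 0.218. That of Rps10 ended without any Tconv WT replicate (up to 0.122) and that of Rps12 without Tconv WT replicate 1 (0.0507). In a fit of only the Tconv libraries 3 members fell, and Rps28, Rps10 and Rps27a no longer passed while Rps27rt did (adjusted p = 0.0771, 0.102, 0.146 and 0.0339). That fit had 18 of the 11314 genes lower.

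Whether the KO difference itself differs between Treg and Tconv was tested with the interaction. It passed for 5 members, all more negative in Treg, and for 0 in the other direction, against 0.115% and 0.0354% of all genes tested (13 and 4 genes). Rps28 differed by -1.62 (SE 0.27, limma adjusted p = 0.0316), Rps19 by -1.59 (SE 0.23, 0.0119), Rps27a by -1.32 (SE 0.23, 0.0342), Rps13 by -1.11 (SE 0.19, 0.0342) and Rps23 by -1.04 (SE 0.18, 0.0342). At an unadjusted p under 0.05, 15 members were lower and 4 higher, against 4.40% and 4.11% of all genes, and edgeR and DESeq2 also called 0 in the positive direction. Rps15a differed by 0.89 (SE 0.25), but did not pass (adjusted p = 0.267). Leaving out 1 library at a time gave 0 to 6 members. Rps19 passed in all of these fits except the one without Tconv WT replicate 2 (adjusted p = 0.0753), where 0 members passed. With Treg KO replicate 1 or 2, Tconv WT replicate 1 or 3, or Treg WT replicate 1, 2 or 4 left out, 1 member passed, and with Tconv KO replicate 3 left out 2 did.

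The normalized read counts of the small subunit genes added up to 2.03% ± 0.128 of the total in Treg WT (SD, range 1.91 to 2.15) and 1.37% ± 0.176 in Treg KO (1.20 to 1.60). The Treg groups did not overlap. In Tconv WT the share was 2.37% ± 0.128 (2.24 to 2.50) and in Tconv KO 1.86% ± 0.289 (1.55 to 2.15), again without overlap. The large subunit genes took 2.40% ± 0.155 in Treg WT, 1.55% ± 0.195 in Treg KO and 2.75% ± 0.152 in Tconv WT, and Tconv KO had 2.10% ± 0.2996.

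**Figure D3:**
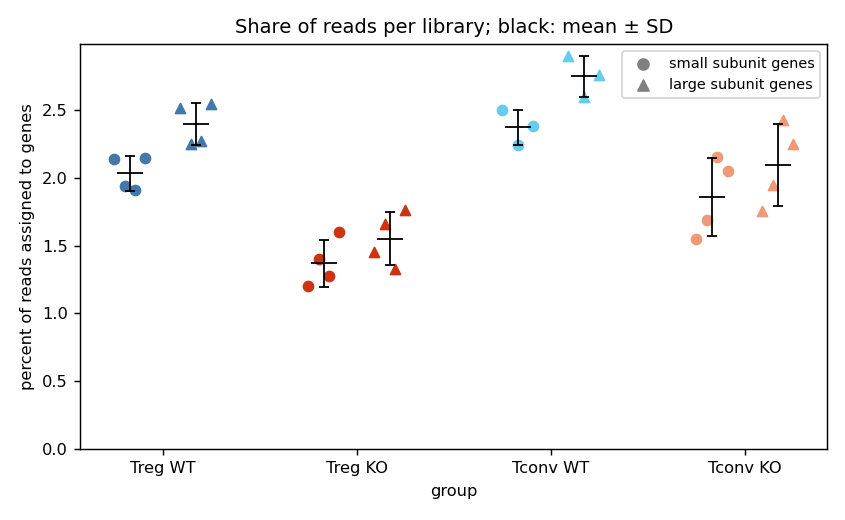
Share of the reads assigned to genes that fell on the small subunit genes (circles) and large subunit genes (triangles) in every library, by group, in percent on an axis that starts at 0; black marks are the mean ± SD. The Treg KO circles, 1.20 to 1.60%, lie below those of Treg WT, 1.91 to 2.15%.

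Levels were set side by side per kilobase of coding sequence. Rps4l and Rps29, for their few reads, and the paralogs Rps27rt and Rps27l were set aside, which left 31 genes. Many of these share coding sequence with other genes, as given further on, so that their order holds only as far as reads were assigned to the right gene. The lowest was Rps12 in every group, a gene of which 100% of 50-base windows occur in other genes too, at 1130 ± 135 in Treg WT and 493 ± 93.8 in Treg KO. The highest was Rps9 in Treg WT (14329 ± 1179), Rps3 in Treg KO (13645 ± 2243) and Tconv KO (13624 ± 3167), and Rps21 in Tconv WT (16541 ± 2191), while in Tconv WT Rps3 (16257 ± 917) and Rps9 (15829 ± 1491) lay within the SD of Rps21. The ratio of the highest to the lowest level was 12.7 in Treg WT, 27.7 in Treg KO, then 10.8 for Tconv WT and 16.6 for Tconv KO. The SD of the log2 levels over the 31 genes was 0.874, 1.28, 0.875 and 1.003 in the same order. Within a group, replicates of a gene varied by a median coefficient of variation of 8.12% in Treg WT and 7.08% in Tconv WT, against 16.4% in Treg KO and 18.8% in Tconv KO.

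Treg and Tconv of the controls were compared next. The estimate was below 0 (Treg minus Tconv) for 31 members, with a median of -0.24 against -0.016 over all genes. Of the 35, 3 passed as lower in Treg and 0 as higher, against 8.06% and 10.0% of all genes tested, and edgeR and DESeq2 also called 0 higher. At an unadjusted p under 0.05 the counts were 10 and 0, against 14.2% and 15.5% of all genes. The sum of 9 CD8 T and NK cell markers moved with this comparison, from 224 to 280 in Treg WT, where Ncr1 was at 0, against 679 to 849 in Tconv WT, and its part in the result was not tested. Rps24 read 4241, 3936, 3952 and 4182 in Treg WT and 6458, 5699 and 5503 in Tconv WT, without overlap, a difference of -0.53 (SE 0.14, limma adjusted p = 0.0147). Rps12 differed by -0.44 (adjusted p = 0.0383). In a fit of only these 7 libraries, 20 members were lower, as were 1926 of the 11314 genes. Leaving out 1 library at a time in the fit of all groups left 0 to 2: without Tconv WT replicate 1 there were 0, and without Tconv WT replicate 2 or 3 or Treg WT replicate 2, 3 or 4 there was 1 each.

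Treg and Tconv of the KO animals were compared in the same way. Of the 35 members, 24 were lower in Treg KO than in Tconv KO and 1 was higher (Rps15a), against 15.6% and 15.8% of all genes tested, with a median of -0.66. In a fit of only these 8 libraries 21 were lower, as were 967 of the 11314 genes. The WT libraries fitted alone gave 20 members, beside 1926 of the 11314 genes. The CD8 T and NK cell markers summed to 224 to 331 in Treg KO, where Ncr1 was at 0, and to 727 to 1386 in Tconv KO, and their part was not tested here either. The libraries did not overlap for 20 of the members with Treg KO lower (over all genes tested, 11.9%). Rps19 differed most among the members that passed, by -1.79 (SE 0.16, limma adjusted p = 9.19e-07), followed by Rps28 at -1.78 (SE 0.18), Rps27rt at -1.77 (SE 0.35) and Rps27a at -1.69 (SE 0.16). Rps15a differed by 0.58 (SE 0.17, adjusted p = 0.0158), with 2138 to 3826 in Treg KO and 1461 to 2596 in Tconv KO, which overlapped, and in a fit of only these 8 libraries it did not pass (0.0801). A second member was also higher without Treg KO replicate 1 or Tconv KO replicate 3 or 4, where the count was 2. The calls of Rps15 (-0.54, SE 0.19) and Rps27l (-0.49, SE 0.16) ended in 5 and 6 of the 8 fits that leave out 1 library (adjusted p up to 0.0948 and 0.0861). This comparison shares the Treg KO libraries with the first comparison, so its values stand beside those and add no separate replicate of them.

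Other genes of the translation machinery were set beside the members. All their Treg counts stand against 11.1% of all genes that fell and 10.4% that rose. Of the 50 large subunit genes tested (53 in the table), 36 fell and 0 rose in Treg KO (72% fell), with a median of -0.67. Rpl9 fell by 1.88 (SE 0.15) and Rpl13 by 1.75 (SE 0.14). In Tconv KO 12 of the 50 fell and 0 rose, against 0.389% and 0.292% of all genes, with a median of -0.47. The protein that sits on the 40S head as a signalling scaffold, Rack1 (row Gnb2l1), differed by -0.23 (SE 0.14, adjusted p = 0.261) in Treg and by -0.06 (SE 0.16) in Tconv. Of 31 genes of the mitochondrial small subunit 4 fell (12.9%, close to the share of all genes) and 0 rose in Treg KO, with a median of -0.19. The largest of these falls was that of Mrps24, by 0.84 (SE 0.16).

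Of 19 translation factors and other genes with TOP mRNAs, 8 fell (42.1%) and 0 rose in Treg KO (median -0.18). Tpt1, the translationally controlled tumour protein, fell by 1.14 (SE 0.12), from 10194 to 4643, and Eef1g, a subunit of elongation factor 1, by 0.76 (SE 0.09). Of 37 small subunit assembly factors 6 fell (16.2%) and 3 rose, with a median of 0.0037: Rrp9 fell by 0.90 (SE 0.19), while Krr1 rose by 0.26 (SE 0.06). A list around mTORC1, S6 kinase and LARP1 also held related genes outside these 3, such as Akt2 and Maf1. Of its 18 tested genes, 4 fell (22.2%) and 0 rose: Akt2 (-0.50, SE 0.09), Maf1 (-0.30, SE 0.06), Larp1 (-0.32, SE 0.07) and Rps6kb2 (-0.33, SE 0.11). Of 16 genes of rescue and quality control 3 fell, among them the stress granule gene G3bp1 (-0.33, SE 0.07) and the ribosome ubiquitin ligase Zfp598 (-0.50, SE 0.15), and 2 rose, Ascc3 (0.35, SE 0.10) and the recycling factor Abce1 (0.33, SE 0.09). In Tconv KO, 1 gene of these 4 lists passed, Eef1g (-0.43, SE 0.09, limma adjusted p = 0.0465).

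Several features that the choice of genes did not use were set beside the Treg difference. Over 33 members (without Rps4l and Rps29) it ran with coding length (Pearson r = 0.46, Spearman rho = 0.32) and with mean level (r = 0.46, rho = 0.48), and weakly with coding GC (r = -0.19). The mean level was taken over all groups. It includes the Treg values that make the difference, so part of its relation is built in. These relations are descriptions across genes, which share libraries and are not independent replicates. The 17 members with a coding length at or under the median of 438 bases had a median difference of -1.21, and the 16 longer ones -0.79. The 14 genes with a TOP start had a median of -0.89 (11 fell, 1 rose). The 12 with a start sequence and no TOP start had -0.81 (10 fell, 0 rose). This split rests on the annotated starts and the few bases around them, so the 12 genes are not shown to lack a TOP tract. Across all 35 members, the Treg and Tconv differences had r = 0.69 and rho = 0.58.

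Ribosomal protein genes have many processed pseudogenes, so the share of 50-base windows of each coding sequence that also occur in a transcript of another gene was computed. It was 8.09% for Rps3, 81.1% for Rps19, 84.2% for Rps15a and 100% for Rps28, Rps27a, Rps13, Rps23 and Fau. The 11 members with every window shared (Rps29 aside) had a median Treg difference of -1.42 (10 fell), and the 22 others -0.65 (16 fell, 1 rose). The 8 members with at most 55% of windows shared had a median of -0.73, and 7 of them fell. Among large subunit genes the corresponding medians were -0.71 (22 genes, all windows shared) and -0.67 (28 others).

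The table has 3 rows of small subunit pseudogenes. Rps19-ps3 read 1126 ± 113 in Treg WT and 1004 ± 158 in Treg KO, a difference of -0.17 (SE 0.14, limma adjusted p = 0.403), beside the fall of Rps19 from 2918 ± 323 to 668 ± 134. Rps15a-ps4 read 2064 ± 138 and 1847 ± 614 and Rps15a-ps6 1287 ± 116 and 1285 ± 909, and neither passed (adjusted p = 0.477 and 0.602). The sources at hand are the labels and the submitters' processing notes. How the submitters assigned reads that match several places is not stated in those sources, so the level of a member with shared windows is uncertain, and the part of read assignment in its difference was not tested.

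**Figure D4:**
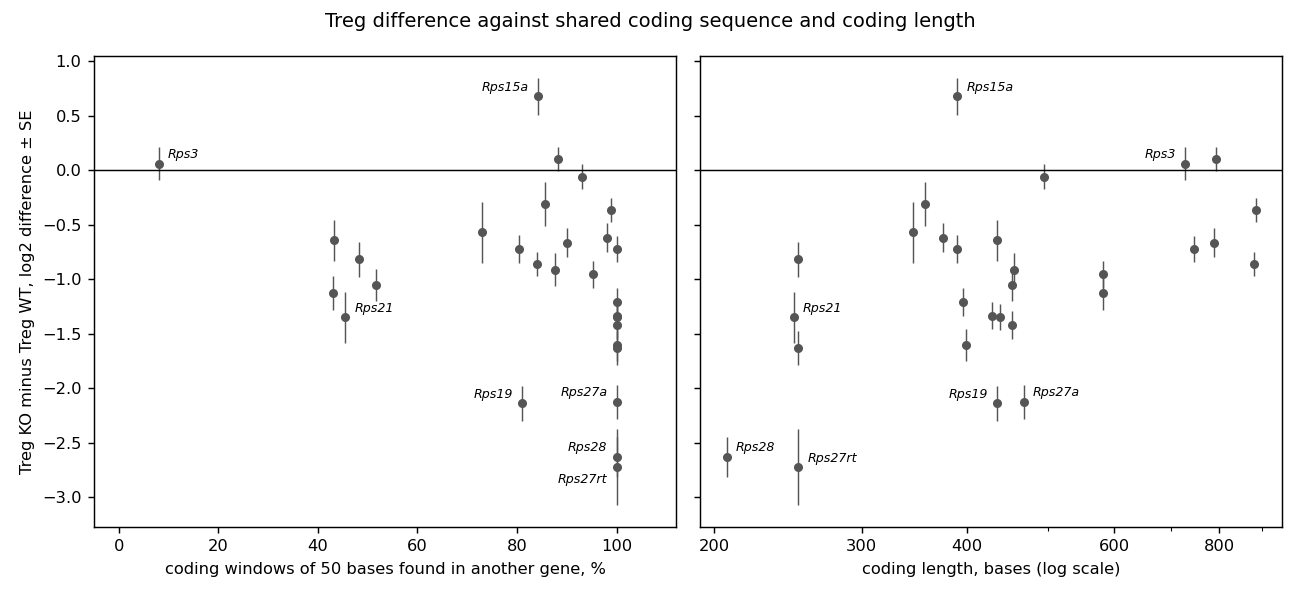
Difference between Treg KO and Treg WT (log2, ± SE) of 29 small subunit genes against the percentage of 50-base coding windows found in another gene (left) and against coding length on a log scale (right). Genes with 100% shared windows reach the lowest values (Rps28, Rps27rt), while Rps3 at 8.09% lies at 0.06 and Rps21 at 45.5% at -1.35. Of the 8 members with at most 55% of windows shared, plotted or not, 7 fell.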

How the data were processed

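RNA from 10 ng of total RNA per sample was made into libraries with an Illumina TruSeq kit, per the labels' protocols. TopHat and the build mm10 are named in the submitters' processing notes. The sources used here do not give how reads were counted or against which annotation. The authors deposited 1 table with a normalized signal for each gene and library, which are gene counts divided by 1 size factor per library: 100% of values were whole reads within 0.001 once divided by the step of their column. edgeR 4.0.16 on these reads called 2444 genes in Treg KO against WT, and DESeq2 1.42.0 called 2779.

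Values were tested in R 4.3.3 with limma 3.58.1 on log2(value + 1), with 4 group means in all 15 libraries, a trend on mean level and 5 contrasts, two-sided. Fold changes are on this scale. The filter kept the 11314 genes that reached 10 in 3 or more libraries, and p-values were Benjamini-Hochberg adjusted over them. Depth was 2.64 to 11.1 M reads (mega-reads) per library. Without molecular identifiers, a limit from a count of 0 covers only counting error. Simulated Treg KO against WT data (11295 genes) gave 19.1% of 1.5-fold, 65.1% of 2-fold and 100% of 4-fold changes, with 7 false among 125 calls. The simulation assumed the same spread for every gene and changed genes drawn from all that were tested. Its rates therefore do not describe the members in particular.

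Gene positions and coding sequences came from GENCODE vM21 (GRCm38) by symbol (17346 of 17594 matched to 1 gene), and start regions from RefSeq. The members and the lists were chosen with earlier results of these data known. Any member could be named, up to 4 genes of each other list with the smallest p in a comparison, Gnb2l1, the label checks and the pseudogene rows. Figures were drawn with matplotlib 3.10.9. Alternatives were both count tests, a pseudocount of 8 or 0.1, an open filter, a stricter filter (mean 50 or more), TMM factors, quantile normalization, totals without ribosomal proteins, only the groups compared, library weights, thinned reads, removed trends on GC content and on transcript length, leaving out each library and, added after the data were seen, a block of neighbouring label numbers. Results of some members are not reported here one by one, while counts and medians cover all 35.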

Additional observations from a re-analysis of the deposited data

Results flagged for a closer look

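Among 105 groups of 4 libraries of the members, 7 held a library far from the other 3. In Treg KO these were Rps13 at 396 in replicate 3 (others 570 to 577), Rps26 at 517 in replicate 3 (others 1545 to 1691), Rps19 at 868 in replicate 4 (others 586 to 627), Rps27 at 202 in replicate 4 (others 153 to 160) and Rps27l at 92.8 in replicate 1 (others 57.0 to 62.9). In Treg WT they were Rps15 at 3904 in replicate 2 (others 4523 to 4593) and Rps27a at 1108 in replicate 3 (others 1475 to 1545).

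The KO difference itself differed between Treg and Tconv by the interaction test in limma for 5 members, each more negative in Treg: Rps28 (-1.62), Rps19 (-1.59), Rps27a (-1.32), Rps13 (-1.11) and Rps23 (-1.04). Over all genes tested, 0.115% passed in that direction. With each of the 15 libraries left out in turn, Rps19 passed in 14 fits. Rps13, Rps23 and Rps27a passed in 6 each and Rps28 in 5.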

How the results depend on the processing

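Each count of members was recomputed under 15 other settings where they apply and with each library left out. In Treg KO against WT the number lower stayed within 1.5 times of 27 in all of them (24 to 27 with a library left out) and the number higher was 2 with the length trend removed, where the median of the members was -0.57. Rps15, Rps24, Rps27l and Rpsa did not pass in that setting. Rps10 turned sign with thinned reads (0.036), the GC trend removed (0.32) and the length trend removed (0.13), and Rps3 with the GC trend removed (-0.024) and without Treg KO replicate 4 (-0.012, the lowest with a library left out, the highest being 0.17). Both stayed short of the threshold there. Rps15 also did not pass when the Treg libraries were fitted alone (adjusted p = 0.0649) or with the GC trend removed (0.0873).

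In Tconv KO against WT the number lower was 12 with DESeq2, 3 in a fit of only the groups compared, 12 with library weights and 1 to 10 with a library left out. Over all 11314 genes, 131, 18 and 189 were lower in the first 3 of these settings. In Treg WT against Tconv WT the number of members lower was 5 with DESeq2, 1 with no filter, 20 with only the groups compared, 17 with library weights and 0 to 2 with a library left out. Over all genes, 1221 were lower with DESeq2, 868 of 16543 with no filter, 1926 with only the groups compared and 2124 with library weights. In Treg KO against Tconv KO the number higher was 2 with quantile normalization, 0 with only the groups compared, 2 with the GC trend removed, 3 with the length trend removed and 1 to 2 with a library left out, and the number lower 22 to 24 with a library left out. In the interaction the number lower was 9 with DESeq2, 3 with the length trend removed (Rps23 and Rps27a lost, both at 0.0683) and 0 to 6 with a library left out. Over all genes, 58 were lower in the interaction with DESeq2 and 8 with the length trend removed. The cause of these shifts was not tested. The labels give no replicate numbers that groups share, but their sample numbers run in neighbouring Treg and Tconv libraries of 1 genotype (Treg WT replicate 4 has no neighbour). They do not say that neighbours share an animal. Deviations from the group means correlated by 0.016 to 0.54 in these 7 pairs, and 13 of 14 libraries correlated best with their neighbour among the libraries of the other cell type. With this pairing as a replicate block, chosen after seeing the data, the number lower was 9 in Treg WT against Tconv WT (Rps12 at adjusted p = 0.0731), 25 in Treg KO against Tconv KO, with 3 higher, and 4 in the interaction (Rps13 at 0.103). Over all 11314 genes, the block gave 1025, 2121 and 9 lower in the same order. KO and WT libraries could not be paired. Rps29 and Rps4l rest on few reads, so their differences have wide errors.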
